A study of Bos taurus with 12 samples.

Results

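The miR-200 family and miR-205 were examined in small RNA libraries from mammary biopsies of 12 multiparous, healthy Chinese Holstein cows. The 6 miRNAs were taken by name from the deposited miRNA table, namely bta-miR-200b, bta-miR-200a, bta-miR-429, bta-miR-200c, bta-miR-141 and bta-miR-205, of 388 mature miRNAs in all (the species prefix is left off from here). Each of the 6 is listed with 1 precursor and exceeded 0.5 TPM in all 12 libraries. The 4 groups of 3 cows differ in stage and phenotype, and each library comes from its own cow. HP and LP are cows with high and low milk protein percentage biopsied at peak lactation, and HD and LD are cows with high and low milk protein percentage biopsied in the non-lactating period. The labels give no treatment, the phenotype was set by herd records, and a biopsy holds every cell type of the gland, so each value is a mixture.

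The miR-200 family is made by epithelial cells, where it holds down the transcription factors ZEB1 and ZEB2 and so keeps E-cadherin and cell junctions in place. Its members fall into 2 clusters in the genome, miR-200b with miR-200a and miR-429, and miR-200c with miR-141, and each cluster is made as a shared primary transcript. The seed, the stretch of a miRNA that pairs with its targets, is the same in miR-200b, miR-200c and miR-429, and a closely similar seed is shared by miR-200a and miR-141. miR-205 comes from a gene of its own, also restrains ZEB1 and ZEB2, and in the mammary gland of the mouse is known from basal and progenitor cells of the epithelium. In the RefSeq annotation of ARS-UCD2.0, used here only for names and neighbours, all 6 genes were found by symbol. There the genes of miR-429, miR-200a and miR-200b were next to each other, as were those of miR-141 and miR-200c, and the gene of miR-205 lay apart from both.

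Levels are given as TPM, the authors' name for RPM, a share of the library's counted reads without a correction for length. For comparisons between libraries they were divided by a size factor for each library (normalized TPM), and differences are log2 of normalized TPM with 1 added. Read numbers were inferred from the values, which rise in steps of the size a single read would give. The inferred depth differed between the stages, with 6026620 to 13373813 counts per library in lactation and 11047232 to 23577193 in the non-lactating period. These totals count a read at every precursor it matches, and with 1 precursor per miRNA they were 4694272 to 11274193 and 8247885 to 17685025. On this basis a miRNA with 3 reads had 0.127 to 0.498 TPM, and the smallest value of any of the 6 miRNAs rested on an inferred 2464 reads (miR-429). The size factors of HD 1 and LD 1 stood apart at 1.5 each, against 0.764 to 1.14 in the other 10 libraries, so their values were lowered most by the scaling.

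All 6 miRNAs were abundant, and their levels spanned more than an order of magnitude. Mean TPM over the 12 libraries was 13729 ± 7371 (SD) for miR-141, 11458 ± 4815 for miR-205, 3014 ± 1527 for miR-200a, 2869 ± 1298 for miR-200c, 604 ± 254 for miR-200b and 431 ± 173 for miR-429. In counted reads the members of a cluster were far from equal, since miR-200a stood above miR-200b and miR-141 above miR-200c in every library. Whether different miRNAs were captured as reads equally well was not tested, so this order is one of reads and not of molecules. Neighbours in this order were compared within libraries (two-sided exact sign-flip permutation test, 5 pairs, Benjamini-Hochberg adjustment, n = 12). miR-205 exceeded miR-200a by 2.03 ± 0.86 (SD) on the log2 scale and miR-200c exceeded miR-200b by 2.21 ± 0.38, each in 12 of 12 libraries with an adjusted exact p = 0.00122. The step from miR-200b to miR-429 was smaller, 0.52 ± 0.50 on the log2 scale, and held in 11 of 12 libraries (adjusted exact p = 0.0106). The other 2 pairs of neighbours did not differ beyond their spread. miR-141 and miR-205 differed by 0.16 ± 1.16 (adjusted exact p = 0.804) and miR-200a and miR-200c by 0.02 ± 0.30 (adjusted exact p = 0.824). The similar mean of miR-141 and miR-205 hides an exchange of places, since miR-141 was the highest of the 6 in 5 of 6 lactation libraries and miR-205 in 5 of 6 non-lactating libraries.

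**Figure D1:**
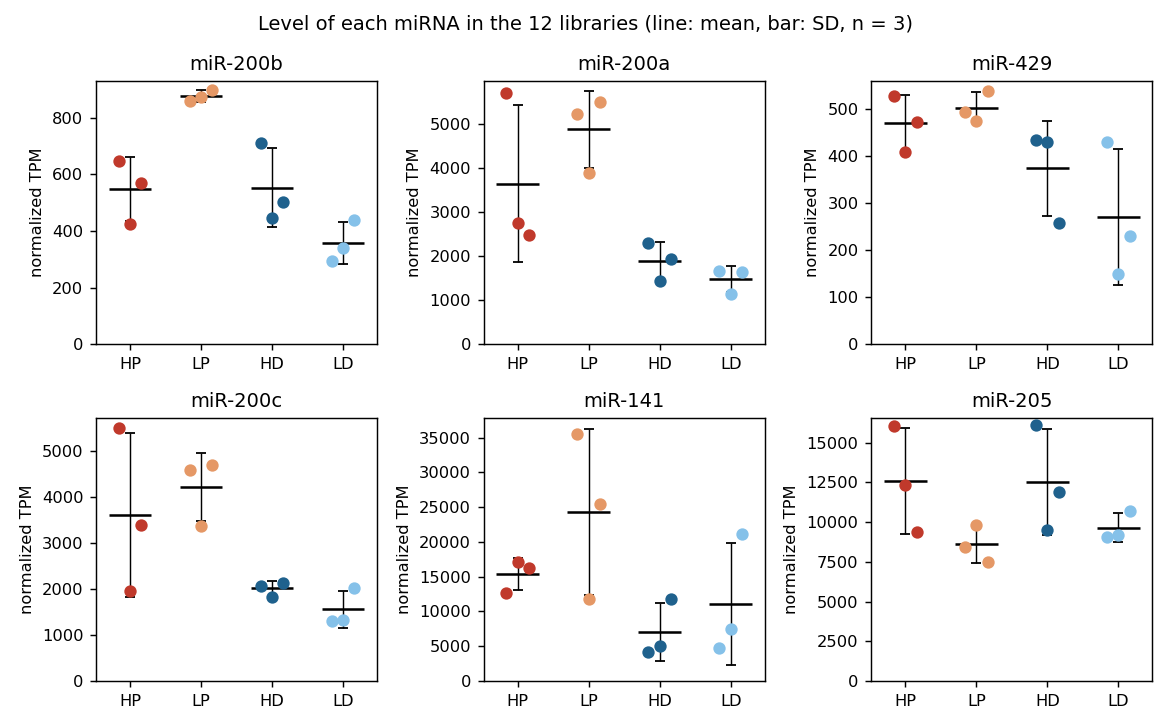
Normalized TPM (vertical axis, linear from 0) of each miRNA in the 12 libraries, by group (HP, LP, HD and LD, 3 points each), with the group mean as a line and the SD as a bar. The 3 LP libraries of miR-200b sit together between 858 and 898, above every other library, whereas the miR-205 groups overlap between the stages.

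The first question was whether these epithelial miRNAs differ between the 2 stages. The 5 members of the miR-200 family were higher in lactation, by 1.57-fold to 2.46-fold, and miR-205 was at much the same level in both stages. In the limma fit over the 12 libraries, 5 of the 6 miRNAs passed an adjusted p of 0.05 with the higher level in lactation, where 22.2% of all 388 miRNAs did so and 44.3% passed in either direction. The median log2 fold change was 0.89 over the 6 and -0.01 over all 388 miRNAs. These are bulk biopsies, so a change in the number of epithelial cells and a change in the RNA per cell cannot be told apart.

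In the miR-200b cluster, miR-200a carried the clearest difference between the stages. Its normalized TPM was 5720, 2756 and 2485 in HP, 5241, 3894 and 5518 in LP, 2294, 1430 and 1947 in HD, and 1666, 1138 and 1642 in LD. Every lactation library lay above every non-lactating library, which held for 11.6% of all miRNAs. The margin was narrow, from 2294 (HD 1) to 2485 (HP 3), and in TPM without size factors HD 1 with 3440 lay above HP 2 with 2703. The stage difference came to 1.30 ± 0.24 on the log2 scale (SE, limma adjusted p = 0.000963), and 38 of the 388 miRNAs had a larger one.

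miR-200b, which shares the primary transcript of miR-200a, differed less. Its normalized TPM was 648, 425 and 569 in HP, 858, 872 and 898 in LP, 710, 445 and 503 in HD, and 292, 340 and 440 in LD. The HP libraries lay within the range of the non-lactating ones, and only the LP libraries were above all of them. It was higher in lactation by 0.65 ± 0.18 on the log2 scale (SE, adjusted p = 0.0126 in limma), and without size factors by 0.54 with an adjusted p of 0.116, which ended the call.

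miR-429, the third member of the cluster and the lowest of the 6, had normalized TPM of 528, 409 and 473 in HP, 494, 475 and 539 in LP, 435, 430 and 257 in HD, and 430, 150 and 231 in LD. Lactation libraries kept to a range of 409 to 539, whereas non-lactating libraries spread from 150 to 435, and 3 of those 6 (HD 1, HD 2 and LD 1) lay above HP 2, the lowest lactation library. In limma the difference was 0.69 ± 0.25 (SE, log2, adjusted p = 0.038). This call was the least firm of the 5, since the adjusted p was 0.258 without size factors. It was between 0.0561 and 0.0871 when HP 1, HP 3, LP 1, LP 2, LP 3, HD 3, LD 2 or LD 3 was left out, 8 of the 12 libraries, and at most 0.0492 without any of the other 4.

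In the second cluster, miR-200c had normalized TPM of 5501, 1957 and 3378 in HP, 4583, 3362 and 4689 in LP, 2065, 1833 and 2131 in HD, and 1308, 1333 and 2016 in LD. A single lactation library, HP 2, lay among the non-lactating values, and the other 5 were all above them. Lactation exceeded the non-lactating period by 1.09 ± 0.24 (SE, log2, adjusted p = 0.00329 in limma).

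miR-141, the most abundant member of the family, had normalized TPM of 12684, 17078 and 16296 in HP, 35514, 11853 and 25514 in LP, 4218, 4990 and 11808 in HD, and 4764, 7454 and 21097 in LD. Non-lactating libraries were mostly under the lactation ones, but LD 3 lay above all but LP 1 and LP 3. Its difference of 1.28 ± 0.40 (SE, log2, adjusted p = 0.0203 in limma) had the widest error of the 6. It was also the most variable of them, with a coefficient of variation of 65.2% over the 12 libraries against 25.9% for miR-205.

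miR-205 had normalized TPM of 16069, 12355 and 9395 in HP, 8438, 9844 and 7494 in LP, 16139, 9518 and 11916 in HD, and 9039, 9198 and 10702 in LD. High and low values occurred in both stages, with the highest pair in HP 1 and HD 1. The stage difference was -0.08 ± 0.19 (SE, log2), with a 95% confidence interval from -0.50 to 0.34 and a limma adjusted p of 0.772. The interval leaves room for a modest difference in either direction, and the sign turned when HP 3 or HD 1 was left out (0.02 in both cases).

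**Figure D2:**
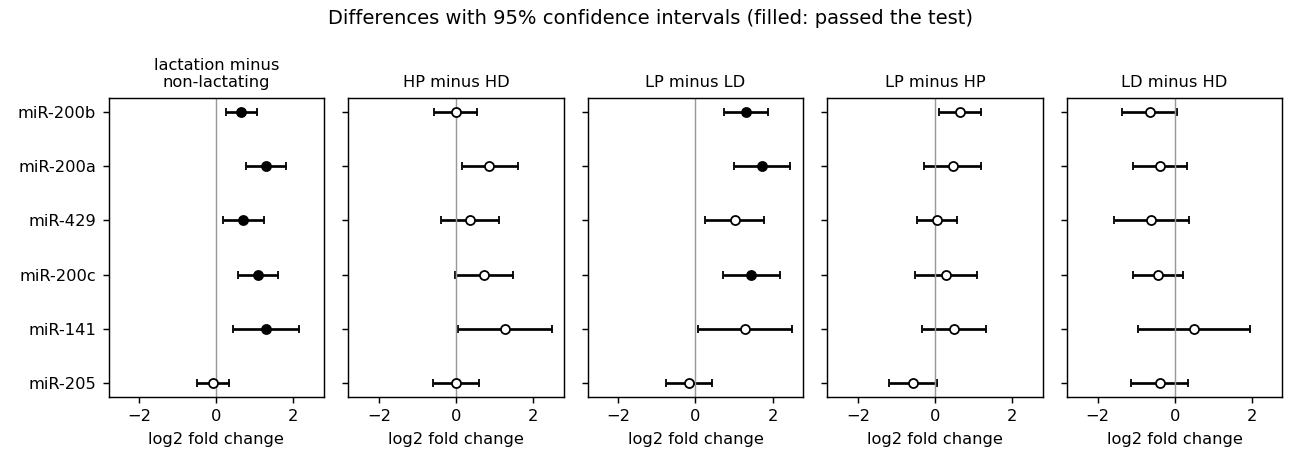
Log2 fold change (horizontal axis) of the 6 miRNAs in 5 comparisons, each point with its 95% confidence interval and filled where the miRNA passed the test of that comparison. The 5 miR-200 miRNAs are filled and right of 0 for the stage, 3 of them for LP minus LD and none for HP minus HD, LP minus HP or LD minus HD, and the interval of miR-205 reaches across 0 in every panel.

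Within each phenotype, 4 of the 5 family members had a larger estimate from LD to LP than from HD to HP, a difference that did not pass its own test, given further on. From LD to LP, 3 of the 6 miRNAs passed the adjusted p of 0.05, all with the higher level in LP, against 12.1% of all miRNAs in that direction. These were miR-200a, with a log2 fold change of 1.72 ± 0.33 (SE, limma adjusted p = 0.00599), miR-200c with 1.45 ± 0.34 (adjusted p = 0.0113) and miR-200b with 1.31 ± 0.26 (adjusted p = 0.00707). Without LP 3 the adjusted p of miR-200c was 0.0511. miR-429, at 1.03 ± 0.35 (adjusted p = 0.0545), and miR-141, at 1.28 ± 0.56 (adjusted p = 0.121), missed the threshold, and miR-429 passed it without LD 1 (adjusted p = 0.00888) or HD 3 (0.0495) or among miRNAs with a mean of at least 10 TPM (0.0486), and miR-141 without LD 3 (0.033). In 4 of the 6, the members of the miR-200b cluster and miR-200c, the LP and LD libraries did not overlap, with LP higher, which held for 19.3% of all miRNAs.

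From HD to HP, 0 of the 6 miRNAs passed in limma after adjustment, against 31.2% of all miRNAs. At an unadjusted p under 0.05 there were 2, against 42.3% of all miRNAs, namely miR-200a with 0.87 ± 0.33 (SE, log2, adjusted p = 0.064 in limma) and miR-141 with 1.28 ± 0.56 (adjusted p = 0.1). The same 2 miRNAs had HP libraries all above the HD libraries, which held for 21.1% of all miRNAs. miR-200c gave 0.72 ± 0.34 (adjusted p = 0.128), miR-429 0.36 ± 0.35 (adjusted p = 0.477), and miR-200b -0.01 ± 0.26 (adjusted p = 0.989). Single libraries decided these calls, since miR-200c passed without HP 2 (adjusted p = 0.0296), miR-200a without HP 3 (0.0485), and miR-141 without HD 3 (0.0476) or LD 3 (0.0499). miR-205 gave 0.01 ± 0.27 from HD to HP and -0.17 ± 0.27 from LD to LP, with adjusted p of 0.989 and 0.673. Whether the stage difference differs between the phenotypes is the same contrast as the interaction of phenotype with stage, given further on.

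The second question was whether cows of high and low milk protein percentage differ within a stage. Here a differentially expressed miRNA had to pass an unadjusted p of 0.05 and differ by more than 0.8 on the log2 scale in either direction. These are the thresholds of the study's methods. The study applied them to DESeq2 fits of read counts and here they were applied to limma fits, so the calls given here are not those of the study. Size factors were computed over the 6 libraries of that stage. In lactation, 0 of the 6 miRNAs met both thresholds in limma, where 10.1% of all miRNAs did. At an unadjusted p under 0.05 alone there was 1, against 15.7% of all miRNAs. This was miR-200b, whose normalized TPM was 425 to 648 in HP and 858 to 898 in LP. The 2 groups did not overlap and LP was higher, as for 12.1% of all miRNAs, and the log2 fold change of 0.65 ± 0.25 (LP minus HP, SE, limma unadjusted p = 0.026, adjusted p = 0.251) was under the threshold of size. Its unadjusted p passed 0.05 in some fits and not in others, with 0.064 without size factors, 0.0551 with the replicate number as a block, 0.0688 with upper-quartile scaling, 0.115 without HP 2, 0.0504 without LP 1, 0.0569 without LP 2 and 0.0617 without LP 3. The LP libraries of miR-200b also stood out by their closeness, with a coefficient of variation of 2.36% against 20.7% in HP.

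The other family members had log2 fold changes of 0.46 ± 0.33 (SE, miR-200a), 0.05 ± 0.23 (miR-429), 0.28 ± 0.36 (miR-200c) and 0.49 ± 0.37 (miR-141), with limma unadjusted p between 0.199 and 0.825. These intervals are wide, and that of miR-141 ran from -0.35 to 1.32. For miR-200a the result turned on HP 1, whose value of 5720 was above those of the LP libraries, and without it the log2 fold change was 0.83 with an unadjusted p of 0.00538. Without LP 2, the lowest LP library of miR-141, that miRNA gave 0.90 with an unadjusted p of 0.0169. miR-205 ran the other way, with a log2 fold change of -0.58 ± 0.28 (SE, limma unadjusted p = 0.0635) and normalized TPM of 9395 to 16069 in HP and 7494 to 9844 in LP. Its unadjusted p was 0.0317 with upper-quartile scaling, 0.0305 without HP 3 and 0.0452 without LP 2, with a difference of no more than 0.8 in each case.

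Some markers of other cell types also differed between HP and LP. By the same 2 thresholds, 2 of 3 erythroid miRNAs (miR-451 and miR-144) and 1 of 6 of stroma and smooth muscle (miR-143) were higher in LP, against 5.93% of all miRNAs, and 1 of 5 leukocyte miRNAs (miR-150) was lower, against 4.12%. The summed normalized TPM of the stroma list was 71973 to 101690 in HP and 131549 to 158436 in LP, without overlap, and that of the erythroid list was 823 to 1253 and 990 to 2536. Most of the stroma sum was miR-143, with a mean of 98926 TPM in lactation against 8068 for miR-199a-3p. As a list, stroma had a median log2 fold change of -0.1, so its sum does not show a shift of the whole list. The median was 0.14 for the leukocyte list and 1.36 for the erythroid list. The part of these markers in the miR-200b difference was not tested.

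In the non-lactating period, 0 of the 6 miRNAs met both thresholds in limma, against 3.35% of all miRNAs, and 0 had an unadjusted p under 0.05, against 4.9%. miR-200b was again the one whose groups did not overlap, here with LD lower as for 4.9% of all miRNAs and with 445 to 710 normalized TPM in HD and 292 to 440 in LD. Its log2 fold change was -0.65 ± 0.31 (LD minus HD, SE, limma unadjusted p = 0.0665, adjusted p = 0.993), and without LD 3 it met both thresholds at -0.82 (unadjusted p = 0.0477). With 1 fit over all 12 libraries the unadjusted p was 0.035 and with upper-quartile scaling 0.0441, at -0.62 and -0.69. miR-200a at -0.38 ± 0.30, miR-200c at -0.43 ± 0.27, miR-429 at -0.60 ± 0.42 and miR-205 at -0.38 ± 0.31 had lower mean levels in LD, each with an adjusted p of 0.993. For miR-429 the result turned on LD 1, without which it was -0.97 (unadjusted p = 0.0348). miR-141 gave 0.50 ± 0.62, and without LD 3 it turned to -0.12. Here too some other markers differed. By the same thresholds, 2 of 5 leukocyte miRNAs (miR-142-3p and miR-142-5p) and 1 of 2 endothelial strands (miR-126-5p) were higher in LD, against 2.06% of all miRNAs. The leukocyte sum of 6953 to 10520 in HD and 13657 to 14500 in LD did not overlap. Most of it was miR-142-5p, with a mean of 10255 TPM in the non-lactating period against 838 for miR-150. The log2 fold changes of the list ran from 0.02 (miR-150) to 1.11 (miR-142-3p) with a median of 0.45, so the sum does not show a shift of the whole list. The part of the leukocyte sum in the miR-200 values was not tested.

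The opposite signs of miR-200b in the 2 stages were tested as a difference between phenotype differences, (LP minus HP) minus (LD minus HD). It was 1.32 ± 0.37 on the log2 scale (SE, limma unadjusted p = 0.00372, adjusted p = 0.482), and 0 of all 388 miRNAs passed this test after adjustment (0.0%), with 5.15% at an unadjusted p under 0.05. Of the 6 miRNAs miR-200b was the only one under that unadjusted limit. The same contrast was 0.85 ± 0.47 for miR-200a, 0.73 ± 0.48 for miR-200c, 0.66 ± 0.50 for miR-429, 0.00 ± 0.79 for miR-141 and -0.18 ± 0.39 for miR-205, with unadjusted p from 0.0959 to 0.996.

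**Figure D3:**
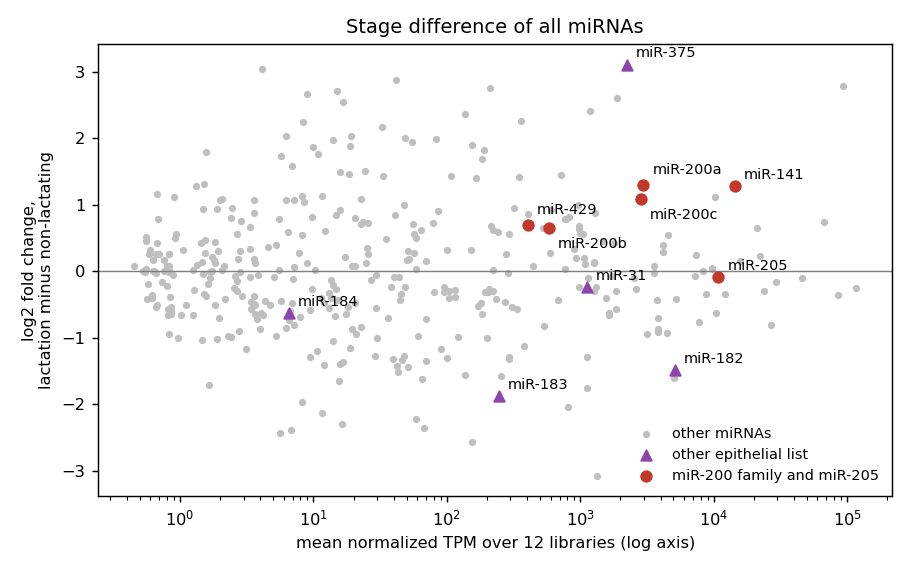
Log2 fold change of lactation minus non-lactating (vertical axis) against mean normalized TPM over 12 libraries (horizontal axis, log scale) for all 388 miRNAs, with the miR-200 family and miR-205 as circles and 5 other epithelial miRNAs as triangles. The family lies between 0.65 and 1.30, miR-205 at -0.08, and the other epithelial miRNAs spread from -1.88 to 3.11.

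Other miRNAs known from epithelia did not share a direction. Of 7 on the list, 5 were analysed here (miR-96 and miR-203 were not), and in limma 1 rose and 2 fell in lactation, where 22.2% of all miRNAs passed in each direction, so the 1 of 5 that rose was near the background share. miR-375 rose by 3.11 ± 0.27 on the log2 scale (SE, adjusted p = 8.41e-06), with a mean TPM of 3895 in lactation and 485 in the other stage. miR-182 and miR-183, products of 1 cluster, had log2 fold changes of -1.48 ± 0.32 (adjusted p = 0.00306) and -1.88 ± 0.39 (adjusted p = 0.00207). miR-31 at -0.24 ± 0.23 and miR-184 at -0.63 ± 0.78 did not pass.

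Some markers of other cell types also passed the stage test, in counts that can be read against the 22.2% of all miRNAs called in each direction. Both strands of miR-126, an endothelial miRNA, were higher in lactation, 2 of 2 on that list, with a summed normalized TPM of 10876 to 16672 in lactation and 5438 to 8603 in the non-lactating period. Of 5 leukocyte miRNAs, 2 were lower in lactation (miR-142-5p and miR-155) and 0 higher, and the sum was 5728 to 9087 in lactation, 6953 to 10520 in HD and 13657 to 14500 in LD. Most of that sum was miR-142-5p, with a mean of 5551 TPM in lactation against 1109 for miR-150. Of 6 miRNAs of stroma and smooth muscle 2 were lower (miR-199a-3p and miR-214), with overlapping sums of 71973 to 158436 and 68080 to 314169. Of 3 erythroid miRNAs 0 passed (823 to 2536 against 278 to 8023), and of 4 striated muscle miRNAs analysed 1 was higher (124 to 357 against 110 to 611). The sum of each list was above 0 in every library, and the part of these cell types in the miR-200 differences was not tested.

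The share of all TPM held by the family showed the stage difference on the scale of the whole library. The 5 members together made up 2.38%, 2.22% and 2.55% in HP, 3.76%, 2.33% and 3.48% in LP, 1.46%, 1.02% and 1.55% in HD, and 1.27%, 0.795% and 1.97% in LD. Each lactation library was above each non-lactating one in this description, which uses TPM without size factors. In normalized TPM the stages overlapped. There the family sum of LD 3, 25426, was above those of HP 1 (25081), HP 2 (22626), HP 3 (23202) and LP 2 (20457). miR-141 was the main member in every library and held 43.4% (HD 1) to 83.0% (LD 3) of the family's TPM. miR-205 alone held between 0.679% (LP 1) and 2.42% (HD 1) of all TPM, more than the family in HD 1, HD 2 and LD 1.

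**Figure D4:**
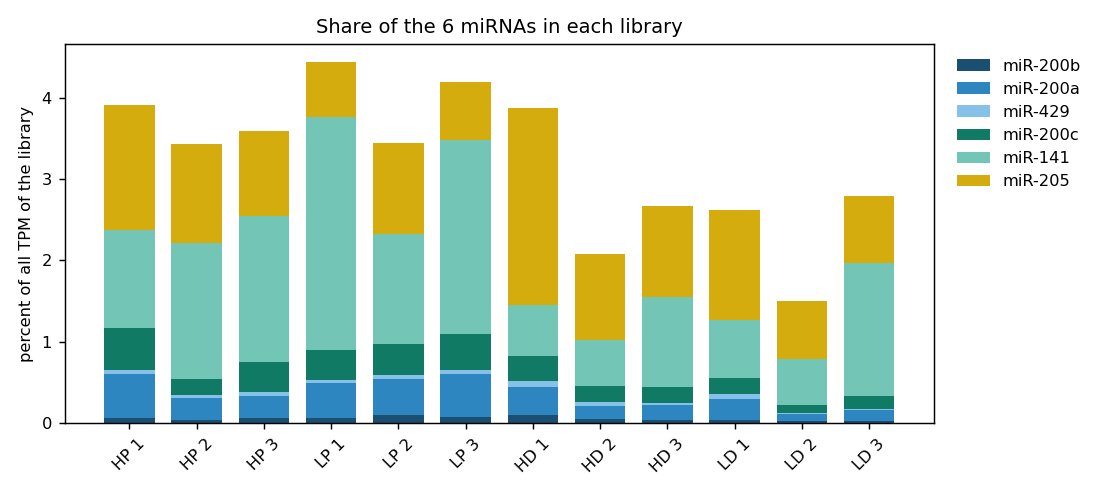
Percent of all TPM (vertical axis) held by each of the 6 miRNAs in each library, stacked, for the HP, LP, HD and LD libraries. The 5 miR-200 miRNAs reach 2.22% to 3.76% in lactation and 0.795% to 1.97% in the non-lactating period, and miR-141 and miR-205 fill most of every bar.

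Ratios within a library do not depend on the scaling, and 5 of them were compared between the stages (two-sided exact permutation test, 6 libraries against 6, Benjamini-Hochberg adjustment over the 5). miR-200a over miR-200b, products of the same transcript, was 4.37 to 8.83 in lactation and 3.22 to 5.71 in the non-lactating period, a rise of 0.64 on the log2 scale (adjusted exact p = 0.0271). The ratio of miR-205 to miR-200c was 1.60 to 6.31 in lactation and 5.19 to 7.82 in the non-lactating period, a difference of -1.17 (adjusted exact p = 0.0271). In both ratios the stages overlapped in part, and HP 2, with 6.31, was the lactation library that reached into the non-lactating range of miR-205 over miR-200c. Both calls were near the threshold, and their adjusted exact p was 0.0541 without HP 1, LP 1, LP 3, HD 1, HD 2 or LD 2, and for miR-200a over miR-200b also without HP 2.

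The other 3 ratios did not pass. miR-141 over miR-200c varied from 2.04 to 10.5 in the non-lactating period and from 2.31 to 8.73 in lactation, a difference of 0.19 (adjusted exact p = 0.866). The proportion of the 2 members of this cluster thus varied widely among the cows of either stage. miR-429 over miR-200b differed by 0.04 (adjusted exact p = 0.885). That ratio was 0.815 to 0.962 in HP and 0.545 to 0.6 in LP with no overlap, and 3 libraries against 3 cannot give an exact p under 0.1. The sum of miR-200b, miR-200c and miR-429 over the sum of miR-200a and miR-141, the ratio of the 2 seeds, was 0.141 to 0.363 in lactation and 0.118 to 0.493 in the non-lactating period, a difference of -0.29 (adjusted exact p = 0.754).

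**Figure D5:**
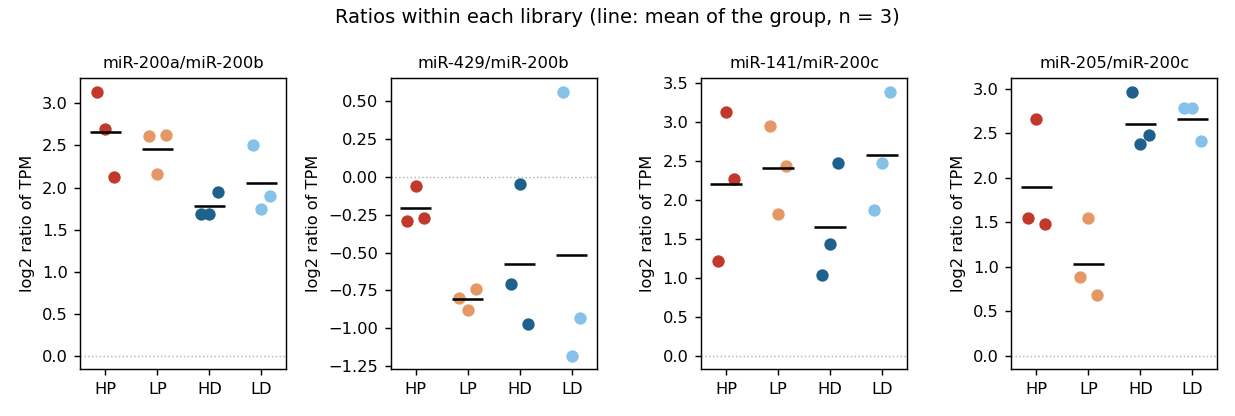
Log2 ratio of TPM within each library (vertical axis) for 4 ratios, by group, with the group mean as a line (n = 3). miR-200a over miR-200b is higher in lactation, and miR-205 over miR-200c is lower there, with HP 2 the exception. miR-429 over miR-200b does not overlap between HP and LP but does between HD and LD, and miR-141 over miR-200c spreads widely in every group.

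The miRNAs whose pattern over the 12 libraries was most like each cluster were listed among 228 miRNAs with a mean of at least 10 TPM. The libraries share their stage, so these likenesses are descriptions, and the value after removal of the group means stands beside each. Closest to the miR-200b cluster (mean z-score of its 3 members) were miR-2887 with a Pearson r of 0.83 (0.73 within groups), miR-11976 with 0.82 (0.81), miR-2340 with 0.82 (0.38), miR-2904 with 0.81 (0.70) and miR-103 with 0.81 (0.28). Closest to miR-200c with miR-141 were miR-6522 with 0.92 (0.75), miR-186 with 0.90 (0.71), miR-500 with 0.86 (0.60), miR-148a with 0.86 (0.60) and miR-190a with 0.86 (0.49). All 10 were themselves higher in lactation, which follows in part from choosing them by likeness to profiles higher in lactation. Of them miR-148a, known to be abundant in milk, had the highest level, with a mean of 154416 TPM in lactation against 25845 in the other stage.

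Running against the family were miR-455-5p, with a Pearson r of -0.92 to the miR-200b cluster (-0.71 within groups) and -0.86 to miR-200c with miR-141 (-0.51), miR-9-5p with -0.89 (-0.69) and miR-874 with -0.89 (-0.69) to the first, and miR-147 with -0.86 (-0.84) and miR-221 with -0.84 (-0.67) to the second. miR-205 had weaker likenesses, with miR-92a at 0.74 (0.46 within groups), miR-505 at 0.68 (0.57), miR-181b at 0.67 (0.44), miR-1388-3p at 0.63 (0.52) and miR-222 at 0.63 (0.52). Its opposites were miR-345-3p at -0.69 (-0.71), miR-34c at -0.65 (-0.36) and miR-6120-3p at -0.61 (-0.48). None of these 8 passed the stage test, as miR-205 itself did not, and they were chosen by their correlation with it.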

How the data were processed

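Small RNA (18 to 30 nt) was sequenced from 12 biopsies. Per the labels and the study's methods, the authors trimmed reads with Cutadapt 2.8 and Trimmomatic 0.36, used Bowtie 1.1.1 with at most 1 mismatch to map reads of that length to the ARS-UCD1.2 build, and quantified miRNAs of miRBase 22.0 through miRDeep2. The deposited values are RPM under the authors' name TPM, in 1 table of 426 entries. Reads from related miRNAs can be shared between entries by the mapping.

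For each mature miRNA the precursor entry with the highest mean was kept, leaving 388. Reads per library were inferred from the step between values. All values (100.0%) were whole multiples of it within 0.0056 TPM, and 45.1% to 55.3% of those under 20 TPM were so for a step of 2 reads. A stricter check of whole reads, which needs 100 values within 20 steps, could be made in 1 of 12 libraries and not in the other 11, so read numbers here are estimates. Groups follow the labels. Size factors (median of ratios, over the libraries of each fit) scaled the TPM, a pseudocount of 1 was added, and log2 values were fitted with limma 3.58.1 (R 4.3.3, mean-variance trend), with Benjamini-Hochberg adjustment over 388 miRNAs. Printed normalized TPM and overlaps use factors over all 12 libraries. Single ratios were tested with exact permutation tests (Python 3.11.15, scipy 1.17.1). The limma fits, the inference of reads and the exact permutation and sign-flip tests were tested on simulated data. Named miRNAs are the 6, the marker lists, and the 5 most and 3 least alike in pattern to each of 3 profiles. The members and lists were chosen with earlier results of these data known. No count test was run for that reason. Counting error only is covered by the 3-read floor.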

Additional observations from a re-analysis of the deposited data

Results flagged for a closer look

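One result stood out. For miR-200b, every LP library lay above every HP library, whereas every LD library lay below every HD library, so the phenotype difference had opposite signs in the 2 stages. The difference between them was 1.32 ± 0.37 on the log2 scale (SE, limma unadjusted p = 0.00372, adjusted p = 0.482 over 388 miRNAs), and it failed the correction. It was between 1.14 and 1.47 when each of the 12 libraries was left out in turn, with an adjusted p from 0.289 to 0.988, and between 1.18 and 1.5 under the 8 other alternatives, with an adjusted p from 0.431 to 0.992. The cause was not tested.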

How the results depend on the processing

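Alternatives were no size factors, pseudocounts of 0.1 and 5, a mean of at least 10 TPM, every precursor entry, no variance trend, a replicate block, 1 fit over all 12 libraries, leaving out each library and, chosen after seeing the data, upper-quartile scaling. The planned edgeR, DESeq2 and TMM alternatives were not run, because the check of whole reads that they rest on could not be made in 11 of the 12 libraries. Of the 6 miRNAs, 3 in place of 5 passed the stage test without size factors, and from HD to HP 1 passed with the replicate block and 2 with upper-quartile scaling in place of 0. For miR-205 from HD to HP the log2 fold change was -0.19 without size factors and -0.01 with every precursor entry, and its dependence on stage was 0.01 without size factors. Upper-quartile scaling gave 0.14 for miR-200b from HD to HP and -0.11 for miR-429 from HP to LP. The dependence on stage of miR-141 was -0.13 with that scaling and -0.00142 with every precursor entry. With a mean of at least 10 TPM miR-429 passed from LD to LP (adjusted p = 0.0486). Causes were not tested. miR-200a, miR-200c and miR-141 kept their stage call under every alternative run.

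Leaving out 1 library gave 0 to 1 miRNAs of the 6 from HD to HP, and likewise for both phenotype comparisons. The log2 fold change of miR-205 ranged from -0.18 to 0.02 for the stage, from -0.18 to 0.20 from HD to HP and from -0.36 to 0.01 for dependence on stage. That of miR-200b ranged from -0.13 to 0.18 from HD to HP. In HP vs LP, miR-429 ranged from -0.04 to 0.14 and miR-200c from -0.10 to 0.64. miR-141 ranged from -0.12 to 0.99 in HD vs LD and from -0.48 to 0.61 for dependence on stage. The ratio of miR-200a to miR-200b rose by 0.53 to 0.76 on the log2 scale, that of miR-205 to miR-200c ranged from -1.41 to -1.01, miR-429 over miR-200b from -0.09 to 0.26 and miR-141 over miR-200c from -0.03 to 0.44. miR-200a minus miR-200c ranged from -0.02 to 0.06 and miR-141 minus miR-205 from -0.02 to 0.35.

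The replicate numbers did not pair the HP libraries with the LP libraries. Between HD and LD some likeness went with the number, and its cause was not tested. Same-numbered deviations correlated at -0.202, -0.256 and 0.0093 between HP and LP and at 0.548, -0.113 and 0.505 between HD and LD, and 0 of 6 and 4 of 6 libraries were closest to their own number. With the replicate block miR-200a passed from HD to HP (0.87, adjusted p = 0.0298) and miR-429 from LD to LP (1.03, adjusted p = 0.0493).

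Counts over all miRNAs moved by over 1.5 times in these cases. The stage count was 113 with a mean of at least 10 TPM (172 before). That fit left out every miRNA under this mean, so its count is out of fewer miRNAs and is not a loss of calls among the same ones. From LD to LP it was 45 without size factors, 57 without LP 1, 34 without LP 3 and 43 without LD 3 (86 before). In HP vs LP it was 22 with a pseudocount of 5 and 24 without LP 1 (39 before), and in HD vs LD 3 without size factors, 7 with a pseudocount of 5, 36 without LD 1, 8 without LD 2 and 6 without HD 2 (13 before). The median of all miRNAs moved without size factors from 0.01 to -0.15 from HD to HP, from 0.03 to -0.16 in HD vs LD and from -0.04 to 0.11 for dependence on stage. Upper-quartile scaling moved it from -0.01 to -0.15 in HP vs LP, from 0.01 to 0.12 from HD to HP and from -0.04 to -0.16 for dependence on stage. The 3 libraries of a group limit every comparison, and the depth inferred from the values differed between the stages.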
